A study of Homo sapiens with 3 samples.

Results

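The autophagy and lysosome genes described here are 45 genes, found in the deposited table of 58735 human genes by the Ensembl identifiers of their symbols. All 45 members reached 1 CPM, a count scaled to library size with the TMM method of edgeR, in at least 1 library, as did 14619 genes in all. The cells were HaCaT, a line of spontaneously immortalised human skin keratinocytes, labelled wild type, and their RNA was sequenced. The 3 groups were cells given carbon black (CB) at 25 µg/mL, cells given S1650b, a particulate matter sample, at 50 µg/mL, and control cells given no particles, all labelled 24 h. The protocol dissolved the particles in medium without serum, and for the control cells the medium of these 24 h is not stated in the labels. Each group was a single library of a single cell line, so no spread between replicates, standard error or p-value could be had. The doses of CB and S1650b differed, so S1650b set against CB compares the 2 libraries and not the 2 particles at a matched dose.

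Autophagy encloses part of the cytoplasm in a double membrane and delivers it to the lysosome. A kinase complex built around ULK1 starts it, a lipid kinase complex with PIK3C3 and BECN1 marks the membrane, ATG9A and the ATG2 proteins supply lipid, and a conjugation system attaches Atg8 proteins to the growing membrane. Cargo receptors such as SQSTM1 bind both the cargo and the Atg8 proteins, and the lysosome, acidified by the V-ATPase proton pump, breaks the contents down with hydrolases. TFEB and TFE3 are transcription factors that bind a CACGTG-centred element in promoters of many lysosomal genes. The measurements here are of RNA, and show neither the amount of protein nor the rate at which cargo passes through the pathway.

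The libraries were of like depth, with 20946139 counts in CB, 20417744 in S1650b and 20658247 in control. All 8 keratinocyte markers were detected in every library. In S1650b against control 3 of the 8 (KRT5, KRT14 and KRT6A) were lower by the rule given below, DSG3 was higher and the other 4 were not called, and in CB against control none was called. The summed counts of the 8 were 264586 in CB, 149319 in S1650b and 283701 in control. The summed counts of 6 fibroblast markers were 610 in CB, 288 in S1650b and 1834 in control, and those of 5 immune markers were 25, 27 and 38 in the same order. Of the fibroblast markers, COL3A1 had 339, 83 and 638 counts and DCN 153, 41 and 1067, both lower in each comparison with control. COL1A1 had 106, 156 and 120 and was not called, and COL1A2, LUM and PDGFRA reached 1 CPM in no library. The 5 endothelial markers summed to 566 counts in CB, 984 in S1650b and 1078 in control, and the 5 melanocyte markers to 165, 212 and 192. Of the melanocyte markers TYR and DCT had 0 counts in all 3 libraries, MLANA at most 17, PMEL had 65 in CB, 42 in S1650b and 99 in control, and MITF had 97, 153 and 90. The part of these marker differences in the results was not tested, and in bulk RNA fewer cells of a type and less RNA per cell cannot be told apart.

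Promoters of 7 members carry TCACGTG, which contains the CACGTG centre of the element that TFEB and TFE3 are known to bind. They are shown first since that pathway links lysosomal and autophagy genes. RefSeq promoter windows on GRCh38.p14, running from 250 bases before to 50 after the gene start, were found for 35 of the 45 members. The motif TCACGTG, read on either strand, occurred in the windows of 7 of the 35 members, against 4.49% of all 27305 genes with a window and 3.71% of all 35116 windows. The core CACGTG, which TCACGTG contains, occurred in 7.26% of all windows. A match is a run of letters and not a measured binding site. The bases just before the start of these 7 genes are printed 5′ to 3′ on the gene's own strand, with the motif in capitals and, where the matches on both strands overlap, both matches in capitals.
CTSD, chr11:1763928-1763997, minus strand: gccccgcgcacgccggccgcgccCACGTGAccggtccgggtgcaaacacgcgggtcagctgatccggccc
CTSA, chr20:45891265-45891334, plus strand: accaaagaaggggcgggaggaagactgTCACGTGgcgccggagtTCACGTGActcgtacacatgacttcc
MCOLN1, chr19:7522554-7522623, plus strand: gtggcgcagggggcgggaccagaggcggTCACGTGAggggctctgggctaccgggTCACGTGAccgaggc
LAMP1, chr13:113297029-113297238, plus strand: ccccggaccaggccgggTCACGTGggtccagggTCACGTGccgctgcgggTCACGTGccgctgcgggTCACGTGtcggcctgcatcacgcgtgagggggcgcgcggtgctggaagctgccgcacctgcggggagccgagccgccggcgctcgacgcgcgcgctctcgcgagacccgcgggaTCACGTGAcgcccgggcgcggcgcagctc
ATP6V0D1, chr16:67481158-67481227, minus strand: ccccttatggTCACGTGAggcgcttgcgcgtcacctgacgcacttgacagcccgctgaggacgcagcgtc
ATG3, chr3:112561963-112562032, minus strand: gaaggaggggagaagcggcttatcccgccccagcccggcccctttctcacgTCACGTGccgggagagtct
ATG14, chr14:55411831-55411900, minus strand: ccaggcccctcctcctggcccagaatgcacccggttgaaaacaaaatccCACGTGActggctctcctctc
LAMP1 had the most copies, 6 in its window, of which 5 are complete in the stretch shown. CTSA, MCOLN1 and ATG3 had 2 copies each, and in ATG3 1 of them lay after the gene start and is not shown. The values of these 7 genes are given together after the results by role.

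Across the 45 members, CB and S1650b differed in how many members stood apart from control. A member was called higher or lower when the ratio of its TMM-scaled CPM was at least 1.5 in that direction and the 95% interval of the ratio, which covers counting error only, lay on that side of 1. In CB against control, 0 of 45 members were higher and 5 were lower (11.1%), beside 4.71% of all 14619 genes higher and 10.7% lower. In S1650b against control, 12 of 45 were higher (26.7%) and 3 lower (6.67%), beside 21.9% of all genes higher and 19.6% lower. In S1650b against CB, 13 of 45 were higher (28.9%) and 2 lower (4.44%), beside 26.1% and 20.7% of all genes. The share of members higher with S1650b was thus near that of all genes, and the share lower was below it. The median log2 ratio of the members was -0.04 in CB against control, 0.06 in S1650b against control and 0.11 in S1650b against CB, beside medians over all genes of -0.00, -0.05 and 0.02. Both comparisons with control share the same control library.

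**Figure D1:**
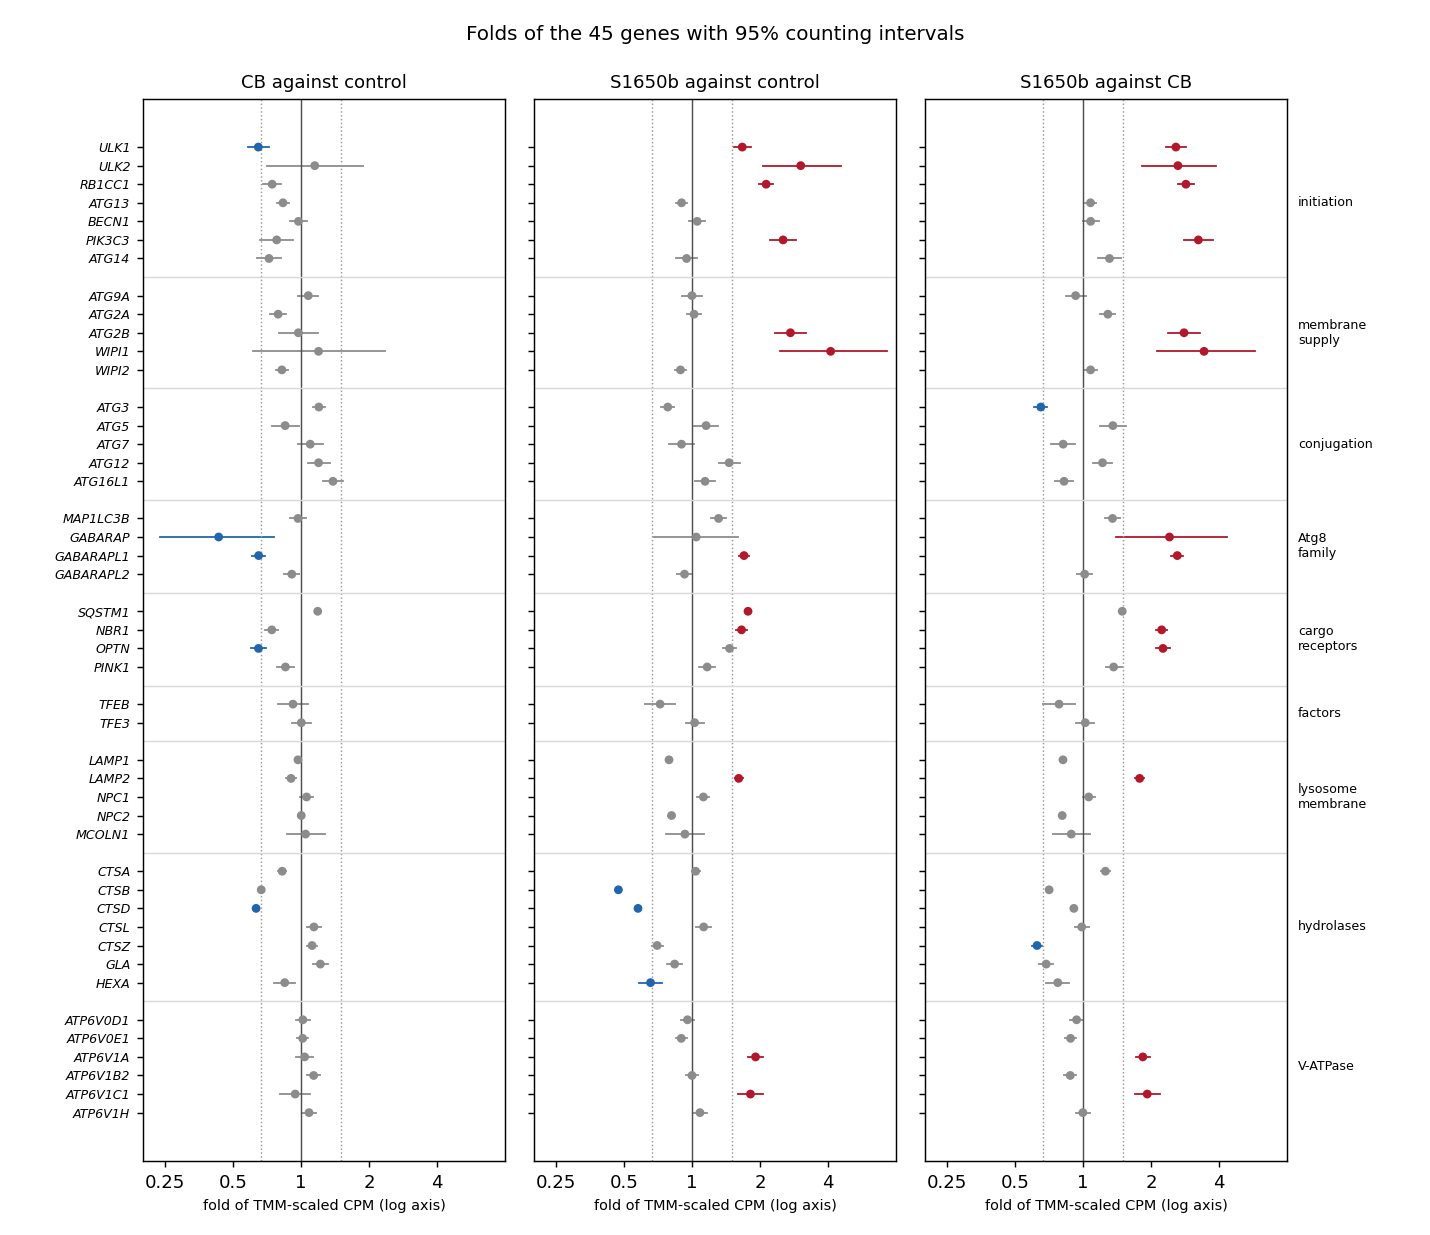
Ratio of TMM-scaled CPM for each of the 45 members (log axis), with bars for the 95% counting interval, in CB against control, S1650b against control and S1650b against CB, grouped by role, with dotted lines at 1.5-fold. Members called higher (red) number 0, 12 and 13 and those called lower (blue) 5, 3 and 2 in these 3 panels, and grey points were not called.

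The calls are next given by the side of the pathway, with the shares of all genes above as background, and the difference between the sides was not tested. Of the 25 members that act in making the autophagosome or loading it with cargo, 9 were higher (36.0%, beside 21.9% of all genes) and 0 lower (19.6% of all genes) in S1650b against control, and 0 were higher and 4 lower (16.0%, beside 10.7%) in CB against control. Of the 18 members that are part of the lysosome, 3 were higher and 3 lower (16.7% each way, near the shares of all genes) in S1650b against control, and 0 were higher and 1 lower in CB against control. The other two members, the transcription factors TFEB and TFE3, were called in neither comparison.

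Of the 7 initiation and nucleation members, 4 were higher in S1650b against control (57.1%, beside 21.9% of all genes). With the length and GC trends described below removed, 2 were higher, ULK1 and ULK2 (14.6% of all genes). ULK1 (ENSG00000177169, chromosome 12, 131894651 to 131923167 on GRCh38) is the kinase that starts autophagy. FPKM, as deposited, scales fragments by exon length and by a library size other than the total counts. ULK1 had 3.75 FPKM in CB, 9.19 in S1650b and 5.51 in control. These were 550, 1576 and 831 counts in the same order. ULK1 was thus highest in S1650b and lowest in CB. It was 1.54-fold lower in CB against control (interval 1.38 to 1.72), 1.67-fold higher in S1650b against control (1.53 to 1.82) and 2.58-fold higher in S1650b against CB (2.34 to 2.85). Its paralog ULK2 was low in all 3 libraries, with 40 counts in CB, 117 in S1650b and 34 in control. ULK2 was 3.03-fold higher in S1650b against control, with a wide interval of 2.05 to 4.58, and 2.63-fold higher in S1650b against CB. Its ratio of CB to control was 1.15 (0.711 to 1.88), so CB and control could not be told apart at this depth.

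RB1CC1, the scaffold that holds the ULK1 complex together, had 5.26 FPKM in CB, 14.3 in S1650b and 6.71 in control. It was 2.13-fold higher in S1650b against control (1.98 to 2.29) and 2.86-fold higher in S1650b against CB (2.63 to 3.10). PIK3C3, the lipid kinase that marks the forming membrane with phosphatidylinositol 3-phosphate, had 0.851 FPKM in CB, 2.62 in S1650b and 1.04 in control. The S1650b library was again apart from the other two, 2.53-fold above control (2.22 to 2.89) and 3.24-fold above CB (2.81 to 3.75). ATG13, BECN1 and ATG14, which act with these enzymes, were not called in any of the 3 comparisons. ATG13, the most abundant of the group per length, had 16.0 FPKM in CB, 16.4 in S1650b and 18.3 in control. BECN1 had 8.48, 8.71 and 8.28 FPKM, and ATG14, which directs the lipid kinase to autophagosomes, had 5.07, 6.30 and 6.67 FPKM, both in the order CB, S1650b, control. In this group ULK1, ULK2, RB1CC1 and PIK3C3 were thus called, and ATG13, BECN1 and ATG14 were not. With the trends by exon length and GC content described below removed, RB1CC1 (1.33) and PIK3C3 (1.32) were no longer called in S1650b against control.

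**Figure D2:**
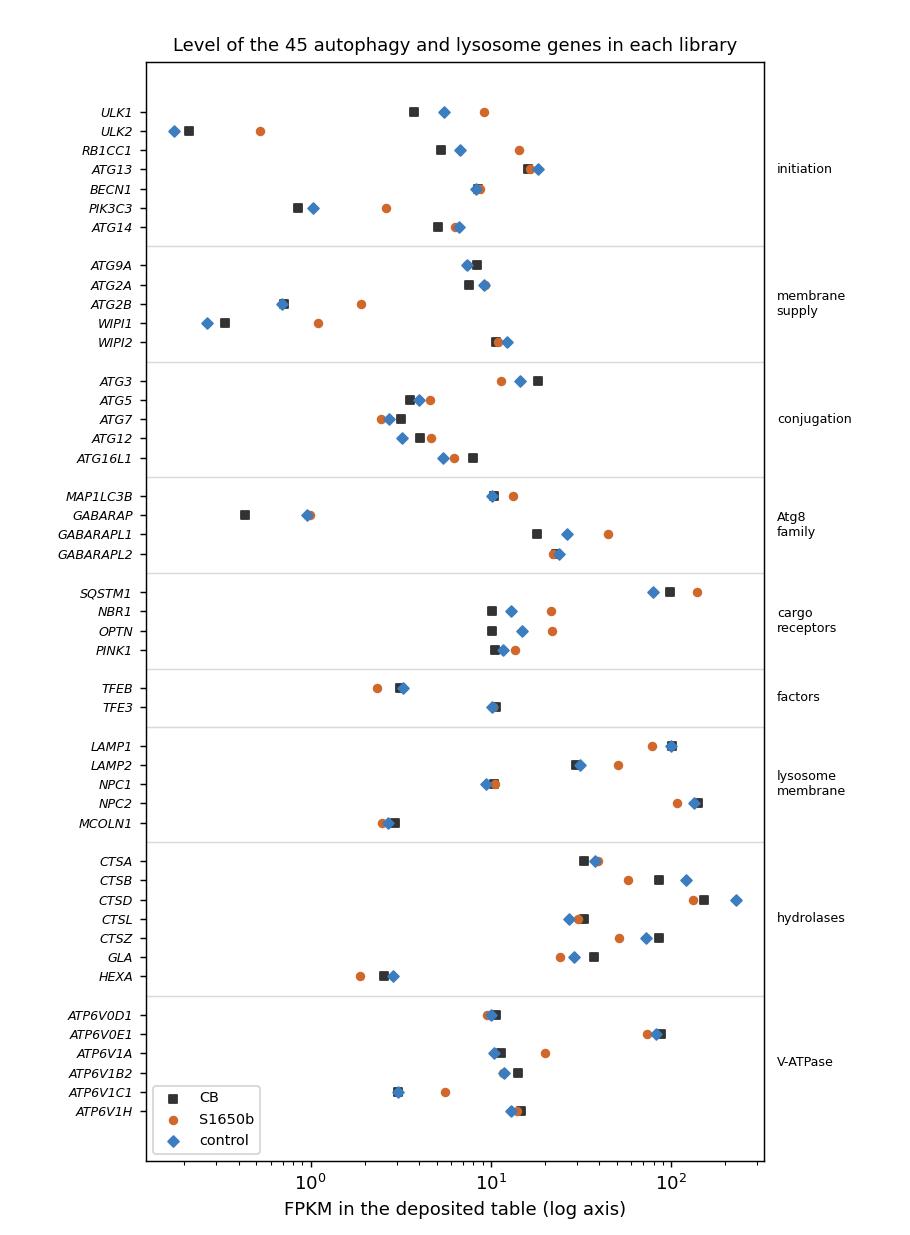
Deposited FPKM of the 45 members in the CB, S1650b and control libraries (log axis), grouped by role, 1 point per library and gene. Members such as ULK2 lay below 1 FPKM in all 3 libraries, and CTSD and NPC2 lay above 100 FPKM in all 3.

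Of the 5 members that supply membrane and expand it, 2 were higher in S1650b against control (40.0%, beside 21.9% of all genes). In CB against control 0 were called. With length and GC trends removed, 2 were higher in S1650b against control (14.6% of all genes). ATG2B, a lipid transfer protein, had 203 counts in CB, 632 in S1650b and 204 in control. It was 2.73-fold higher in S1650b against control (2.33 to 3.21) and 2.80-fold higher in S1650b against CB (2.39 to 3.30). Its paralog ATG2A was not called, with 7.61 FPKM in CB, 9.31 in S1650b and 9.13 in control. WIPI1, which reads the lipid made by PIK3C3, had 22 counts in CB, 84 in S1650b and 18 in control, and 28.1% of its exon length overlaps other genes. It was 4.11-fold higher in S1650b against control (2.45 to 7.27), and with the overlapping gene ARSG summed in, the ratio was 2.26 (1.55 to 3.36). Its relative WIPI2, the most abundant of these 5 per length, was not called and had 10.6 FPKM in CB, 10.9 in S1650b and 12.3 in control. ATG9A, the membrane protein of the vesicles that seed autophagosomes, had 8.40 FPKM in CB, 7.40 in S1650b and 7.41 in control and was not called either.

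In the conjugation machinery, none of ATG3, ATG5, ATG7, ATG12 and ATG16L1 was called against control in either particle library. ATG3, the enzyme that transfers Atg8 proteins to lipid, had 18.4 FPKM in CB, 11.3 in S1650b and 14.5 in control, and was 1.54-fold lower in S1650b against CB (1.44 to 1.64). ATG12, the ubiquitin-like partner of ATG5, came closest to the limit in S1650b against control, with a ratio of 1.46 (1.31 to 1.62). ATG16L1, which sets where conjugation happens, had the largest ratio of any member in CB against control, 1.39 (1.252 to 1.534), and was not called.

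The 4 Atg8 members, the small proteins attached to the autophagosome membrane, did not move together. GABARAPL1 (chromosome 12, 10212458 to 10223130) had 18.1 FPKM in CB, 44.8 in S1650b and 26.4 in control. It was 1.54-fold lower in CB against control (1.44 to 1.65), 1.70-fold higher in S1650b against control (1.61 to 1.79) and 2.62-fold higher in S1650b against CB (2.46 to 2.78). GABARAPL2 had 23.0 FPKM in CB, 22.2 in S1650b and 24.0 in control and was not called. Per length, GABARAPL1 was thus above GABARAPL2 in S1650b and control and below it in CB. MAP1LC3B, the LC3 protein most used to follow autophagosomes, had 1059 counts in CB, 1591 in S1650b and 1068 in control. Its ratio of S1650b to control was 1.31 (1.21 to 1.42), above 1 and under the 1.5-fold limit. Its near-identical copy MAP1LC3B2 had 50, 51 and 41 counts in CB, S1650b and control, so how reads were split between the copies is uncertain. GABARAP itself had 19 counts in CB, 51 in S1650b and 43 in control, and 55.7% of its exon length overlaps other genes. It was 2.31-fold lower in CB against control (1.32 to 4.20) and 2.42-fold higher in S1650b against CB (1.40 to 4.33), and its ratio of S1650b to control was 1.04 (0.682 to 1.61). With overlapping genes summed in, the ratio of CB to control was 0.559 (0.338 to 0.908) and that of S1650b to CB 2.06 (1.30 to 3.33).

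Among the cargo receptors, SQSTM1 and NBR1 were higher with S1650b, and OPTN was lower with CB. SQSTM1 (p62, chromosome 5, 179806398 to 179838078), which binds ubiquitinated cargo, had 98.6 FPKM in CB, 139.8 in S1650b and 79.1 in control. These were 14540, 24119 and 11994 counts, the most of any cargo receptor here. SQSTM1 was 1.77-fold higher in S1650b against control (1.73 to 1.81), and its ratios were 1.19 in CB against control (1.16 to 1.22) and 1.49 in S1650b against CB (1.46 to 1.52). MRNIP, which overlaps SQSTM1 on the opposite strand, had 306 counts in CB, 786 in S1650b and 308 in control. With MRNIP summed in, the ratio of S1650b to control was 1.78. So few added counts could hardly move the ratio, so the sum does not show how reads in shared exons were assigned. NBR1, a receptor of the same domain plan, had 1641 counts in CB, 4068 in S1650b and 2161 in control. NBR1 was 1.66-fold higher in S1650b against control (1.57 to 1.75) and 2.23-fold higher in S1650b against CB (2.11 to 2.36). OPTN, a receptor for damaged mitochondria and bacteria, had 10.1 FPKM in CB, 21.8 in S1650b and 14.9 in control. OPTN was 1.54-fold lower in CB against control (1.42 to 1.67) and 2.26-fold higher in S1650b against CB (2.10 to 2.43), and its ratio of S1650b to control, 1.47 (1.38 to 1.56), lay just under the limit. PINK1, the kinase that marks damaged mitochondria, was not called, with 10.5 FPKM in CB, 13.7 in S1650b and 11.7 in control.

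The CB calls of ULK1, GABARAPL1 and OPTN depended on the scaling. Under the median of ratios scaling of DESeq2 their log2 ratios in CB against control were -0.58, -0.57 and -0.57, and in the deposited FPKM they were -0.54, -0.55 and -0.55, all short of 1.5-fold, which left 2 of 5 lower calls. Their order among the libraries was the same under each scaling tried, with S1650b highest and CB lowest.

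The transcription factors of lysosomal genes were not called in any comparison. TFE3 had 10.6 FPKM in CB, 10.3 in S1650b and 10.1 in control. TFEB had 342 counts in CB, 298 in S1650b and 363 in control, and was 1.38-fold lower in S1650b against control (1.18 to 1.62), under the limit.

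Of the 5 lysosome membrane and lipid export members, LAMP2 alone was called. LAMP2, a receptor and structural protein of the lysosome membrane, had 29.8 FPKM in CB, 50.4 in S1650b and 31.4 in control. LAMP2 was 1.61-fold higher in S1650b against control (1.54 to 1.68) and 1.78-fold higher in S1650b against CB (1.71 to 1.86). Its relative LAMP1 had 101.5 FPKM in CB, 78.6 in S1650b and 99.5 in control, a ratio of S1650b to control on the other side of 1. NPC2, which hands cholesterol to NPC1 for export, was the most abundant of the group per length, with 140.4 FPKM in CB, 107.9 in S1650b and 133.2 in control. NPC1 had 10.4 FPKM in CB, 10.5 in S1650b and 9.36 in control. MCOLN1, the lysosomal calcium channel, had 225 counts in CB, 222 in S1650b and 210 in control.

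As scaled, the hydrolases were the only role group with members lower in S1650b against control. These were 3 of 7 (42.9%, beside 19.6% of all genes), and none of the 7 was higher in any of the 3 comparisons. With the length and GC trends described below removed, 2 of the 7, CTSB and HEXA, were lower (17.4% of all genes). ATG3 of the conjugation group and ATP6V1B2 of the V-ATPase were then lower as well. CTSD (chromosome 11, 1752752 to 1764573), the aspartic protease of the lysosome, had 152.9 FPKM in CB, 132.3 in S1650b and 229.7 in control. Both particle libraries were below control: CTSD was 1.58-fold lower in CB (1.54 to 1.62) and 1.73-fold lower in S1650b (1.69 to 1.78). Other genes overlap 52.7% of its exon length. CTSD had 9204 counts in CB, 9325 in S1650b and 14227 in control, and 9332, 9442 and 14383 with overlapping genes summed in. The ratios to control were then 0.63 and 0.58. So few added counts could hardly move the ratios, so the sum does not show how reads in shared exons were assigned. CTSB, a cysteine protease, had 12197 counts in CB, 9604 in S1650b and 17891 in control. CTSB was 2.12-fold lower in S1650b against control (2.06 to 2.17), and 1.499-fold lower in CB against control (1.46 to 1.53), just short of the limit. HEXA, a subunit of the enzyme that degrades ganglioside, had 621 counts in CB, 534 in S1650b and 717 in control. HEXA was 1.52-fold lower in S1650b against control (1.36 to 1.71), a call lost under total counts, median of ratios and upper quartile scaling.

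CTSZ, a carboxypeptidase, had 85.9 FPKM in CB, 51.1 in S1650b and 73.0 in control, and was 1.60-fold lower in S1650b against CB (1.51 to 1.68). The calls of CTSZ and ATG3, the 2 lower calls in S1650b against CB, were lost under total count and upper quartile scaling. CTSZ was also not called with the length trend removed (ratio 0.719) or with length and GC trends removed (0.797). The other hydrolases were not called. CTSL had 32.7 FPKM in CB, 30.6 in S1650b and 27.2 in control, CTSA had 33.0, 39.4 and 38.0, and GLA, the enzyme deficient in Fabry disease, had 37.3, 24.3 and 29.1 in the same order. Summed over the 7 hydrolases, the levels were 429.5 FPKM in CB, 337.0 in S1650b and 521.4 in control. Without CTSD and CTSB, left out after their values were seen, the other 5 summed to 191.3 FPKM in CB, 147.3 in S1650b and 170.1 in control, so CB was then above control. Summed FPKM over all 14619 genes was also lowest in S1650b, with 343937 in CB, 274350 in S1650b and 339468 in control. A lower sum in S1650b is thus not particular to the hydrolases.

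**Figure D3:**
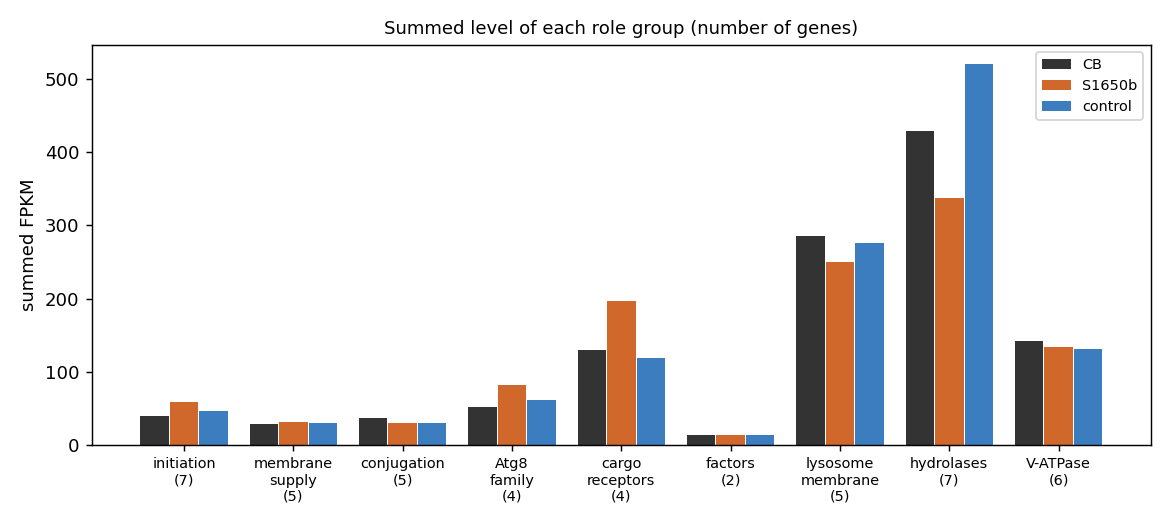
Summed deposited FPKM of the members of each role group in the CB, S1650b and control libraries, 1 bar per library, from 0. The hydrolases sum to 429.5 in CB, 337.0 in S1650b and 521.4 in control, and the cargo receptors to 129.4, 196.6 and 118.6, of which the 3 without SQSTM1 make up 30.8, 56.9 and 39.6. All 14619 genes sum to 343937 in CB, 274350 in S1650b and 339468 in control.

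In the V-ATPase, 2 of 6 members were higher in S1650b against control (33.3%, beside 21.9% of all genes), and 0 were called in CB against control. With length and GC trends removed, 0 were higher and 1 was lower in S1650b against control, beside 14.6% and 17.4% of all genes. ATP6V1A, the catalytic subunit that splits ATP, had 1128 counts in CB, 2308 in S1650b and 1063 in control. ATP6V1A was 1.91-fold higher in S1650b against control (1.78 to 2.06) and 1.84-fold higher in S1650b against CB (1.71 to 1.98). ATP6V1C1, a subunit of the stalk, had 3.04 FPKM in CB, 5.56 in S1650b and 3.07 in control. It was 1.82-fold higher in S1650b against control (1.60 to 2.07) and 1.93-fold higher in S1650b against CB (1.69 to 2.20). The subunits of one pump did not move together. ATP6V1B2, which forms the catalytic ring with ATP6V1A, had 14.1 FPKM in CB, 11.7 in S1650b and 11.8 in control, and ATP6V1H, the regulatory subunit, had 14.8, 14.0 and 12.9. The membrane subunit ATP6V0E1, the most abundant of the 6 per length, had 87.8 FPKM in CB, 73.5 in S1650b and 82.1 in control, and ATP6V0D1 had 10.7, 9.55 and 10.0.

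The ratios of S1650b to control moved with gene properties over the whole library, and many member calls moved with them. Over 14619 genes the log2 ratio of S1650b to control had a rank correlation of 0.31 with exon length and, over 14613 genes, of -0.44 with GC content. Over the 45 members these were 0.25 and -0.36, and for CB against control over all genes they were 0.04 and -0.11, all computed within the same libraries. The 12 members higher with S1650b had a median exon length of 7611.5 bases and a median GC content of 44.6%, and the 30 members not called had 5480.5 bases and 50.4%. The part of these trends in the calls was therefore examined by removing smooth trends with length and GC content fitted over all genes. In S1650b against control 6 members were then higher, ULK1 (1.85), ULK2 (2.26), ATG2B (1.72), WIPI1 (4.68), GABARAPL1 (1.69) and SQSTM1 (1.92), and 4 were lower, beside 14.6% of all genes higher and 17.4% lower. The calls of RB1CC1 (1.33), PIK3C3 (1.32), NBR1 (1.249), LAMP2 (1.10), ATP6V1A (1.39), ATP6V1C1 (1.26) and CTSD (0.81) were lost, these being ratios of S1650b to control. The 4 lower members were CTSB (0.48) and HEXA (0.46), called before as well, and ATG3 (0.54) and ATP6V1B2 (0.64), which were not.

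After this removal, 6 of the 25 autophagosome members were higher and 1, ATG3, was lower, and of the 18 lysosome members 0 were higher and 3 lower. The shares of all genes were 14.6% higher and 17.4% lower, and the difference between the sides was not tested. With length alone removed, 9 of the 45 members were higher and 3 lower, beside 2780 of all 14619 genes higher and 2844 lower. ULK1, SQSTM1 and NBR1 then lost their calls. ULK1 and SQSTM1 were thus called as scaled and with both trends removed, and not with length alone removed. In CB against control, removing both trends left 0 higher and 4 lower, GABARAP (0.44), GABARAPL1 (0.64), OPTN (0.64) and CTSD (0.66), beside 5.40% of all genes higher and 9.81% lower. In S1650b against CB, 12 were then higher and 3 lower, beside 19.4% and 20.9% of all genes. ULK1, RB1CC1 and GABARAPL1 remained among the 12, and LAMP2, ATP6V1A and ATP6V1C1 did not.

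**Figure D4:**
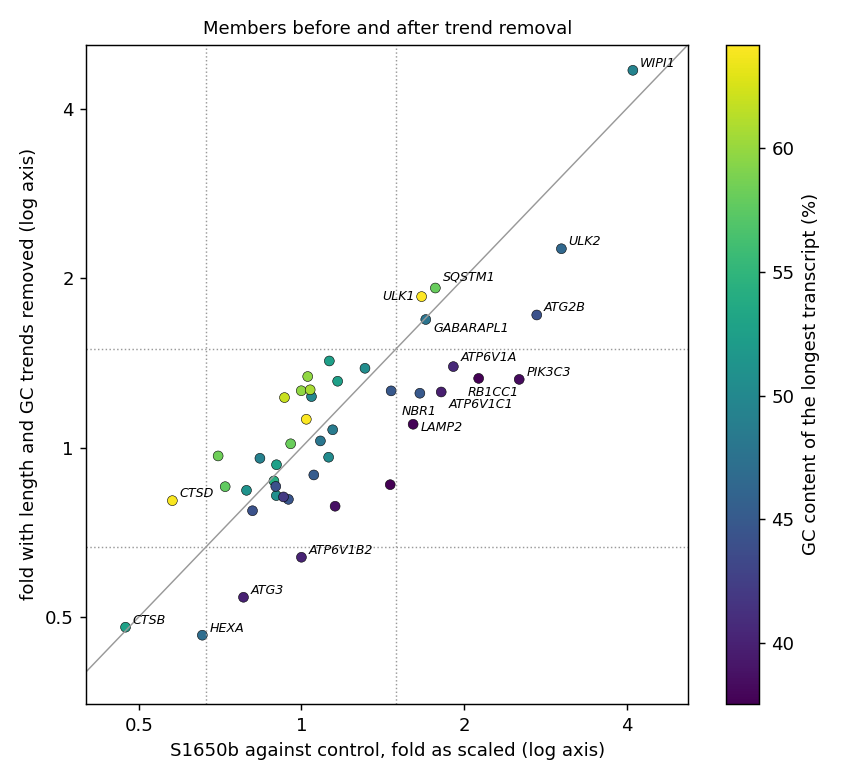
Ratio of S1650b to control for the 45 members as scaled (horizontal, log axis) and with length and GC trends removed (vertical, log axis), coloured by GC content of the longest transcript, with dotted lines at 1.5-fold. Members of low GC content such as LAMP2, RB1CC1 and PIK3C3 lie below the diagonal, and WIPI1, ULK2, SQSTM1, ULK1, ATG2B and GABARAPL1 stay above the upper limit on both axes.

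The 7 members with a TCACGTG run before or just after their start, shown above, stayed near or below control. In S1650b against control 0 of the 7 were higher and 1, CTSD, was lower, with ratios from 0.577 to 1.04. In CB against control the ratios of these 7 ran from 0.633 for CTSD to 1.20 for ATG3. Of the 28 members whose window lacks the motif, 8 were higher and 0 lower in S1650b against control, beside 21.9% of all genes higher and 19.6% lower. With 7 members in the motif group, and no test of the difference, these counts do not set the groups apart. Of the 10 members with no window in the table, 4 were higher and 2 lower. The median GC content of the transcripts was 58.1% for the 7 with the motif and 49.6% for the 28 without, and the part of GC content in this difference was not tested. With length and GC trends removed, 0 of the 7 were higher and 1, ATG3, was lower, and of the 28 without the motif 6 were higher and 0 lower. The shares of all genes were then 14.6% higher and 17.4% lower.

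The wider pathway was described with 154 further genes, of which 148 passed the filter. In S1650b against control 30 of these were higher (20.3%, beside 21.9% of all genes) and 16 lower (10.8%, beside 19.6%), with a median log2 ratio of -0.02, so the share higher was near that of all genes. With length and GC trends removed 23 of the 148 were higher and 13 lower, beside 14.6% of all genes higher and 17.4% lower. These shares and those as scaled are the background for the lists that follow. In CB against control 1 was higher (0.676%, beside 4.71%) and 8 lower (5.41%, beside 10.7%), with a median of -0.09. Among the 26 other autophagy genes that passed, 5 were higher (19.2%) and 0 lower in S1650b against control, and 0 were called in CB. PIK3R4, which anchors PIK3C3 to the membrane, was 2.28-fold higher with S1650b (2.06 to 2.52), VMP1, needed to form the phagophore, 1.99-fold higher (1.91 to 2.08), and STX17, which fuses autophagosomes with lysosomes, 2.15-fold higher. With length and GC trends removed 5 of these 26 were still higher, and PIK3R4 (1.85) and STX17 (1.74) were among them, while VMP1 (1.29) lost its call. Among 16 other cargo receptors and partners, 7 were higher (43.8%) and 1 lower with S1650b, and 5 were higher with the trends removed. TAX1BP1, a receptor related in role to SQSTM1, was 2.41-fold higher (2.24 to 2.59), and TBK1, the kinase that phosphorylates OPTN, 2.15-fold higher, with ratios of 1.91 and 1.52 after removal. CALCOCO1, a receptor for endoplasmic reticulum, was 2.22-fold lower in CB against control.

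Of 25 genes of mTORC1 and lysosomal nutrient sensing, 3 were higher (12.0%) and 5 lower in S1650b against control, and 2 and 3 with the trends removed. MLST8, a core subunit of the mTOR complexes, was 2.10-fold lower (1.92 to 2.30), and TSC1, which restrains mTORC1, was 1.88-fold higher. The call of TSC1 was lost with the trends removed (1.35), and that of MLST8 was kept (0.612). FNIP2, a partner of folliculin, was 2.92-fold higher in S1650b against control (1.86 with the trends removed) and 1.53-fold higher in CB against control. Of 38 other lysosomal hydrolases and activators, 7 were higher (18.4%) and 6 lower with S1650b, 9 and 5 with the trends removed, and 0 were higher and 5 lower with CB. CTSS, a cysteine protease, was lower in both, 2.77-fold in CB against control and 2.46-fold in S1650b against control. CTSV was 2.26-fold lower in S1650b against control (ratio 0.337 with the trends removed). In the other direction, IDS was 2.68-fold higher in S1650b against control (1.81 with the trends removed). CTSK was 3.25-fold higher there (3.37 with the trends removed), with 23 counts in control and 85 in S1650b. Of 18 other lysosomal membrane genes 7 were higher (38.9%) and 3 lower with S1650b, and 2 were higher and 3 lower with the trends removed. SCARB2, the receptor that carries glucocerebrosidase, was 1.78-fold higher as scaled, a call lost with the trends removed (1.0297). LAMP3 was 4.31-fold lower in S1650b against control (2.72 to 7.06), with 91 counts in control and 24 in S1650b. The 3 lower genes of this list, LAMP3 (0.218) among them, kept their calls with the trends removed. Of 15 other V-ATPase genes 0 were higher and 1 was lower in each comparison with control: ATP6V1B1 had 43 counts in CB, 63 in S1650b and 303 in control, and 62.4% of its exon length overlaps other genes. Of 10 mannose 6-phosphate sorting genes, 1 was higher and 0 lower with S1650b, GNPTAB, which makes the sorting tag, at 2.20-fold. With the trends removed GNPTAB was at 1.44 and 0 of the 10 were higher.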

How the data were processed

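RNA-seq was compared in 3 libraries of HaCaT cells (CB, S1650b, control), grouped by the labels. Trizol was used to extract the RNA and a NEBNext Ultra kit to build the libraries, per the labels' protocols. The deposited count table holds whole read counts per Ensembl gene, and the deposited FPKM table holds FPKM by the authors. The lengths implied by counts over FPKM equal the merged exon lengths of GENCODE 29 (GRCh38), which gave positions, lengths and GC content. Relative to control, the library size implied by the FPKM was 0.972 in CB and 1.14 in S1650b. The deposited FPKM was thus not scaled by the total counts. The submitters' processing notes name CASAVA 1.7 and mouse builds, in conflict with the human identifiers. The sources used here name no aligner, counting tool or strand setting, so overlapping and antisense genes are uncertain.

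Genes with at least 1 TMM-scaled CPM in at least 1 library were kept (14619, edgeR 4.0.16 in R 4.3.3). TMM factors were 0.960 in CB, 1.09 in S1650b and 0.952 in control. Ratios are of TMM-scaled CPM with exact 95% conditional binomial (Clopper-Pearson) intervals, which cover counting error only; log2 ratios have 0.5 counts added. With 1 library per group there was no test. Trends with length and GC content were removed by lowess (span 30%), checked on simulated log2 ratios with planted slopes. The scaling, interval and call rule were checked on simulated counts. Alternatives were total counts, median of ratios (DESeq2 1.42.0), upper quartile, FPKM with 0.1 added, 5 counts added, other filters, and a higher fold limit of 2 and a lower one. Summing overlapping genes was an alternative chosen after seeing the data.

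The members, role groups, related lists and markers were chosen with earlier results of these data known. Values are printed for each member called in any comparison, the most abundant of each role group and the Atg8 family, and for further members chosen after their values were seen. Of each related list, the genes named come from up to 4 past the rule in S1650b against control and up to 2 in CB against control, ranked by the interval end nearest to 1. Motifs were searched in RefSeq windows of 250 bases before to 50 after each start.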

Additional observations from a re-analysis of the deposited data

Results flagged for a closer look

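ULK1 and GABARAPL1 were lower in CB and higher in S1650b, each against the same control library. The CB calls of both were lost under median of ratios scaling and in the deposited FPKM. The CB call of ULK1 was also lost with length and GC trends removed (ratio 0.689), and its S1650b call with length alone removed (1.39). The ratio of S1650b to CB was 2.58 for ULK1 and 2.62 for GABARAPL1. With 1 library per group the difference between the 2 particle libraries was not tested.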

How the results depend on the processing

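No paired analysis was possible because each group had 1 library, and no replicate could be left out. In CB against control, the 5 lower members were 2 under median of ratios and 2 in FPKM, 1 at a fold limit of 2 and 11 at the lower fold limit tried, where 1 was higher. The median of the members there was -0.04 as reported, 0.01 under median of ratios and 0.03 in FPKM. In S1650b against control, the 12 higher members were 5 at fold 2 and 6 with length and GC trends removed, and the 3 lower were 1 at fold 2 and 7 at the lower limit. Total count scaling moved the members' median there to 0.26, against 0.06 as reported, while the median over all genes moved to 0.15 from -0.05. In S1650b against CB, 20 members were higher at the lower limit. The 2 lower there were 0 under total counts, 0 under upper quartile and 0 at fold 2, 6 at the lower limit and 4 with the length trend removed, where ATG3 remained and CTSZ did not. Fewer calls at fold 2 and more at the lower limit follow from the rule itself, and for the scalings and trends the cause was not tested. No called member changed sign under any alternative run. Low counts limit ULK2, WIPI1 and GABARAP, each with at most 117 counts in any library. Whether overlap with other genes lowered the counts of WIPI1 and GABARAP was not tested.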
